A study of Mus musculus with 2 samples.

Results

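Granule-rich progenitor barcodes were the cell barcodes of a mouse bone marrow single-cell library whose RNA was richest in the messages of the neutrophil primary granule. A barcode was selected when mitochondrial genes held under 10% of its UMIs (unique molecular identifiers, each counting 1 captured RNA molecule), Elane, Mpo, Prtn3 and Ctsg together held at least 2%, and S100a8 and S100a9 together held under 15%. Of the 6439 barcodes under the mitochondrial limit, 172 met this rule (2.67%, 95% exact binomial interval 2.29 to 3.09%). They were set against the other 6267 barcodes of the library. The proposed name was granulocyte-monocyte progenitors of marrow. The granulocyte side of that name was borne out by the genes described here and the monocyte side was not, so the barcodes are called by their granule genes.

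The study sequenced a pair of 10x Genomics 3′ libraries from naive mice. The marrow library was made from CD45+ CD3- Ly6G- cells sorted from bone marrow of 3 pooled C57BL/6 mice. The Car1-GFP library was made from sorted CD45+ marrow cells expressing GFP, taken from 3 pooled Car1-GFP reporter mice on the same strain background. Each library was loaded with 10000 sorted cells, and neither label gives an age, a sex or a treatment. Because the mice were pooled and each group is 1 library, there were no replicates and no test between groups could be made. The Ly6G- gate removes cells with Ly6G on their surface, which are maturing neutrophils, so the marrow library does not sample the whole granulocyte line.

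Neutrophils carry their antimicrobial proteins in granules that are filled in sequence as the cell matures. Primary (azurophil) granules are made first, by promyelocytes, and hold the serine proteases neutrophil elastase, proteinase 3 and cathepsin G together with myeloperoxidase. Secondary and tertiary granule proteins such as lactoferrin are made later, when transcription of the primary set has stopped. In the progenitors before this split, the repressor Gfi1 favours the granulocyte fate and Irf8 the monocyte and dendritic fates.

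The 4 granule genes of the rule and Ms4a3 lie in 4 places in the mouse genome. In the GENCODE M21 annotation of mm10, Prtn3 (chromosome 10, 79874476 to 79883174, plus strand) and Elane (chromosome 10, 79886247 to 79888215, plus strand) are neighbours. Mpo (chromosome 11, 87793581 to 87804413, plus strand), Ctsg (chromosome 14, 56099881 to 56102574, minus strand) and Ms4a3 (chromosome 19, 11629496 to 11640851, minus strand) lie elsewhere. Their promoters are shown because 4 of these genes set the selection and Ms4a3 was high in the same barcodes. Each sequence covers bases 150 to 66 before the gene's RefSeq start in GRCm38.p6, 5′ to 3′ on the gene's strand, and capitals mark GAGGAA, the core bound by ETS factors such as PU.1:
Elane, chr10:79886162-79886246, plus strand: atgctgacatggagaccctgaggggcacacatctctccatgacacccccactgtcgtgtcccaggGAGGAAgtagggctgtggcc
Prtn3, chr10:79879517-79879601, plus strand: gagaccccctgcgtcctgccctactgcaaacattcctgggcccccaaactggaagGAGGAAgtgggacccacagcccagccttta
Ctsg, chr14:56102640-56102724, minus strand: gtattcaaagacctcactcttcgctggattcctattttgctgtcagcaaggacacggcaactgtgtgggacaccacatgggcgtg
Ms4a3, chr19:11640917-11641001, minus strand: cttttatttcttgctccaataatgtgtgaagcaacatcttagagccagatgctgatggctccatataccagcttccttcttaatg

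The window of Mpo overlaps an annotated exon and is not printed. Over the 150 bases before the start, on both strands, GAGGAA was present in 2 of the 5 promoters, 85 bases before the start in Elane and 95 bases before it in Prtn3. The same letters were present in 14.5% of 32851 mouse promoters of that length. The MYB core TAACNG was present in 1 of the 5, 20 bases before the start of Elane on the minus strand and so outside the printed stretch, against 11.95% of all promoters. TTGCNNAA, a spaced C/EBP core, was present in 0 of the 5, against 5.46%. The matches do not overlap each other, and they describe the letters of the windows only. The printed stretch of Prtn3 lies inside the longer GENCODE span of that gene, outside its exons.

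The marrow library held 6458 barcodes with 8661570 UMIs (median 1048 per barcode), of which 19 were over the mitochondrial limit. The 172 selected barcodes held 323060 UMIs, which is 3.74% of the library. They were deeper than the rest, with 623 UMIs in the lowest, a median of 1864 and 3729 in the highest, against a median of 1033 in the other barcodes (593 to 12247). They held a median of 864.5 genes per barcode, against 544 in the others; with every barcode thinned to 500 UMIs the medians were 330 and 334 genes. Of 14 barcode sequences found in both libraries, 1 was a selected barcode. Mitochondrial genes held 3.19% and ribosomal protein genes 29.5% of pooled UMIs in the selected barcodes, against 2.15% and 19.9% in the others, and the part of these shares in the results was not tested. Scrublet called 171 barcodes of the marrow library as doublets, and 0 of them were selected.

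The values used for the selection are given as a description only. Elane (neutrophil elastase) had the most UMIs of the granule genes, with 3 in the lowest selected barcode, a median of 19 and 56 in the highest. Mpo (myeloperoxidase) had 0, 12 and 32 UMIs, Prtn3 (proteinase 3) had 1, 10 and 25, and Ctsg (cathepsin G) had 0, 3 and 15 on the same scale. Every selected barcode held Elane and Prtn3, 171 held Mpo and 149 held Ctsg. The 4 genes together made up 2.001% of UMIs in the lowest selected barcode, 2.42% at the median and 4.27% in the highest. Pooled, they held 2.52% of UMIs in the selected barcodes, against 0.225% in the others. S100a8 and S100a9, which encode the calprotectin of later neutrophils, held 3.33% of pooled UMIs in the selected barcodes and 11.5% in the others.

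The selected barcodes sat close to the granule limit. Between 2% and 2.5% there were 95 of them, between 2.5% and 3% there were 45, and 32 lay at 3% or more. The lowest share inside the limit was 2.001% and the highest outside was 1.99%, with a further 124 barcodes between 1.5% and 2%. The S100 limit cut off far fewer. The highest selected barcode stood at 14.8%, and 2 barcodes with enough granule UMIs lay outside, at 16.9% and 18.2%. The selection is therefore a stretch of a continuous range in the granule genes, with few barcodes near its S100 limit.

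**Figure D1:**
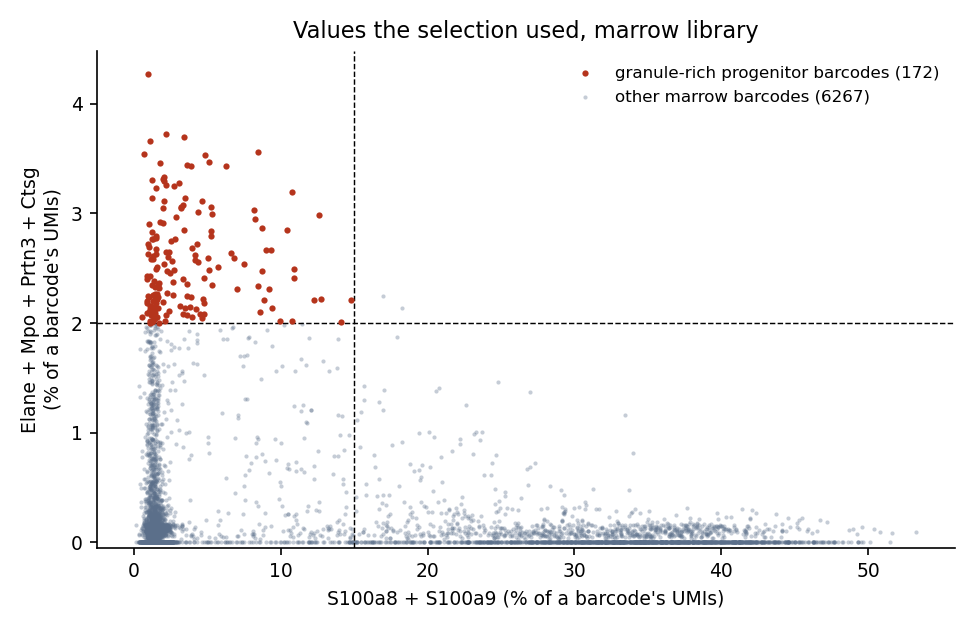
Each point is 1 barcode of the marrow library, with the S100a8 and S100a9 share of its UMIs (%) across and the Elane, Mpo, Prtn3 and Ctsg share (%) up; dashed lines mark the 15% and 2% limits. The 172 granule-rich progenitor barcodes (red) lie between 2.001% and 4.27% on the granule axis, with no gap between them and the barcodes beneath the line.

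Among genes outside the rule, 8 of 16 measured genes of the primary granule and its assembly were at least 2-fold higher, and 12 of 16 genes of the later granules were at least 2-fold lower. Levels are CPM, a gene's UMIs per 1000000 UMIs of the group, genes are counted from a 2-fold difference, and log2 ratios are the selected barcodes over the other side with a 95% exact binomial interval. These intervals, and the ones on shares of barcodes, cover counting error only. A gene was counted as measured at 20 UMIs or more in both groups combined. By at least 2-fold, 737 of 10485 measured genes were higher in the selected barcodes (7.03%) and 1505 were lower (14.4%), and the median log2 ratio was 0. Where the interval also had to exclude an equal level, 411 were higher and 634 lower. With the granule limit at 3%, which leaves 32 barcodes, the counts were 1465 genes higher and 574 lower. These barcodes hold 50241 UMIs, against 323060 in all 172. A gene at 0 is set at a floor of 3 counts over the group, which is a higher level over the smaller total. The counts at 3% are therefore not on the same scale as those at 2%. The parts of depth, of the floor and of the barcodes themselves in this turn of the balance were not tested.

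Of 16 measured genes of the primary granule and its assembly outside the rule, 8 were higher and 3 lower by 2-fold or more, with a median log2 ratio of 0.81. Their summed level was lower in the selected barcodes, at 7175 CPM against 8175 CPM in the others. Ms4a3, a membrane protein of early granulocytes that was also named as a marker of these cells, had 0 UMIs in the lowest selected barcode, 3 at the median and 13 in the highest. It reached 1628 CPM in the selected barcodes, against 173 CPM in the others (log2 3.24, 3.09 to 3.38). It was found in 149 of the 172 selected barcodes (86.6%) and in 14.3% of the others. At 500 UMIs per barcode the share with Ms4a3 was 50% in the selected barcodes, against 3.23% in erythroid and 1.56% in NK barcodes, which should lack the gene. Their unthinned median depths were 1864 UMIs in the selected, 1567 in the erythroid and 735.5 in the NK barcodes.

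Other genes of the primary granule, its assembly and protease inhibition were also higher. Prss57, a serine protease of the primary granule whose gene lies on chromosome 10 (79781474 to 79790961, minus strand) near Elane, reached 238 CPM in the selected barcodes and 26.6 CPM in the others (log2 3.17). Srgn, the proteoglycan core that packs granule proteases, reached 1232 CPM in the selected barcodes, against 220 CPM in the others (log2 2.49). It was present in 135 selected barcodes with a median of 2 UMIs. Nkg7, a granule membrane protein also made by NK cells, reached 1099 CPM in the selected barcodes, against 162 CPM in the others (log2 2.76). NK markers were not higher with it: their summed level was 58.8 CPM in the selected barcodes and 277 CPM in the others, with 5 of 7 measured markers at least 2-fold lower. Cst7 (cystatin F), an inhibitor of cathepsins, reached 204 CPM in the selected barcodes and 37.8 CPM in the others (log2 2.43). Cd63, a primary granule membrane tetraspanin, reached 786 CPM in the selected barcodes against 234 CPM in the others (log2 1.75), and Serpinb1a, which inhibits elastase and cathepsin G, reached 433 CPM against 208 CPM in the others (log2 1.06).

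The 3 genes of the list that were lower included both lysozymes. Lyz2, the lysozyme of monocytes and neutrophils, had 997 CPM in the selected barcodes and 6583 CPM in the others (log2 -2.72). That level was near the 1128 CPM of erythroid and the 1246 CPM of plasmacytoid dendritic barcodes, which should lack Lyz2. Ctsc, which activates the granule proteases, had only 9 UMIs in the selected barcodes, or 27.9 CPM, against 122 CPM in the others (log2 -2.13, -3.26 to -1.20). Lyz1 had 1 UMI in the selected barcodes against 175 in the others (log2 -2.76, -8.08 to -0.27).

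The genes beside the proteases did not reach their level. Next to Elane on chromosome 10, Cfd (79890853 to 79892655), a serine protease of the complement pathway, had 0 UMIs in the selected barcodes and 1 in the others. Plppr3 on the far side of Prtn3 had 13 UMIs in the selected barcodes, 40.2 CPM against 14.2 CPM in the others (log2 1.51, 0.55 to 2.33). The annotated span of Plppr3 overlaps that of Prtn3 on the opposite strand, and whether the counting used strand is not given in the sources used here, so their reads may not be told apart. Next to Ctsg on chromosome 14, the basophil protease Mcpt8 (56082166 to 56085273, minus strand) was lower in the selected barcodes, at 83.6 CPM against 520 CPM in the others (log2 -2.64, -3.24 to -2.10). The granzyme gene Gzmb of the same cluster had 1 UMI in the selected barcodes against 13 in the others.

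The balance among the granule genes differed from that of the other barcodes. For each Elane UMI there were 0.601 Mpo UMIs in the selected barcodes, against 0.903 in the others and 0.910 in barcodes with 0.5 to under 2% granule UMIs. Prtn3 stood at 0.509 per Elane UMI in the selected barcodes, against 0.820 in the others, and Ctsg at 0.181 against 0.286. These ratios use the genes of the rule and describe the selection, and the part of free RNA in them was not tested.

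Outside the rule, and at a mean level of 50 CPM or more over both sides, the highest ratio belonged to RP23-6I17.1, annotated as an antisense transcript on chromosome 7 (143628024 to 143670614, plus strand). It had 139 CPM in the selected barcodes against 13.8 CPM in the others (log2 3.33), and without knowledge of strand its reads cannot be told apart from those of its partner gene. Gstm1, a glutathione transferase, reached 696 CPM in the selected barcodes, against 108 CPM in the others (log2 2.69). Mt1, a metallothionein that binds zinc and copper, reached 861 CPM against 162 CPM in the others (log2 2.41) and was present in 122 selected barcodes. Alas1, the first enzyme of heme synthesis in non-erythroid cells, reached 269 CPM against 52.7 CPM in the others (log2 2.35). Among 9 measured heme synthesis genes, Alas1 alone was past 2-fold upward and 4 were past it downward, against 7.03% and 14.4% of all measured genes. The median log2 ratio of the heme synthesis genes was -0.52. Rgcc, a regulator of the cell cycle, reached 532 CPM in the selected barcodes against 83.5 CPM in the others (log2 2.67). B4galt6, a glycolipid galactosyltransferase, reached 325 CPM against 42.3 CPM in the others (log2 2.94), and the clock gene Per3 reached 92.9 CPM against 18.4 CPM in the others (log2 2.34).

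**Figure D2:**
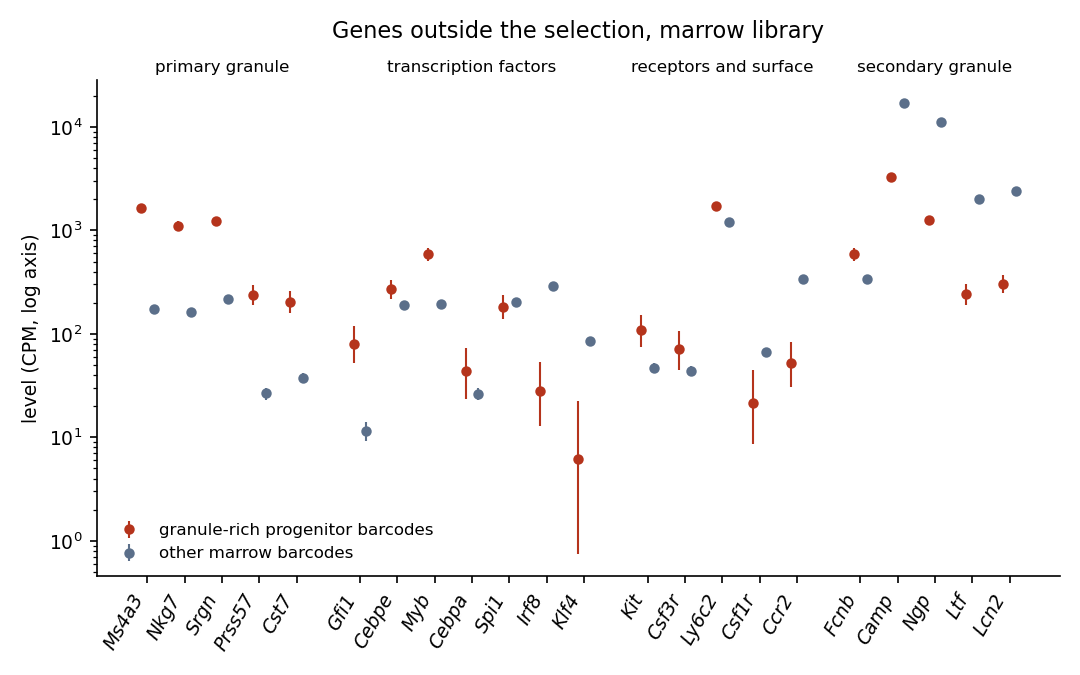
Levels (CPM, log axis) of genes outside the selection rule in the granule-rich progenitor barcodes (red) and the other marrow barcodes (grey-blue), with 95% exact Poisson intervals. Ms4a3 stands at 1628 against 173 and Gfi1 at 80.5 against 11.4, while Irf8 stands at 27.9 against 287 and Lcn2 at 303 against 2414.

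Among transcription factors, Gfi1 was higher and Irf8 lower in the selected barcodes. Gfi1, the repressor of the granulocyte fate decision (chromosome 5), had 26 UMIs spread over 22 selected barcodes (12.8%), against 1.40% of the others with a UMI. Its level was 80.5 CPM in the selected barcodes, against 11.4 CPM in the others (log2 2.82, 2.13 to 3.46). Irf8 (chromosome 8) had 9 UMIs in 8 selected barcodes (4.65%), against 22.7% of the others. Its level was 27.9 CPM in the selected barcodes, against 287 CPM in the others (log2 -3.36, -4.49 to -2.44). Gfi1 and Irf8 were found together in 0 selected barcodes, though at 26 and 9 UMIs few joint findings could be seen at this depth.

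The other factors were mixed. Cebpe, the C/EBP factor needed for secondary granules, stood at 269 CPM in the selected barcodes and 192 CPM in the others (log2 0.49, 0.16 to 0.80), in 65 selected barcodes. Myb, which keeps progenitors dividing, reached 585 CPM in the selected barcodes, against 195 CPM in the others (log2 1.59, 1.36 to 1.80). It was found in 103 of the selected barcodes (59.9%) and in 17.04% of the others. The intervals of Cebpa (log2 0.71), Cebpb (log2 -0.12), Spi1, which encodes PU.1 (log2 -0.16), Runx1 (log2 0.11) and Myc (log2 0.50) all spanned 0, so no difference was detectable at this depth. Klf4, a monocyte factor, had 2 UMIs, 6.19 CPM against 86.1 CPM in the others (log2 -3.80, -6.85 to -1.94). Gata2 had 1 UMI (log2 -3.01, -8.32 to -0.52), and Gata1 had 0 UMIs against 20.9 CPM in the others, at least 2.25-fold lower with a floor of 3 counts over the selected barcodes. Of 23 measured myeloid factors, 3 were higher and 10 lower by 2-fold or more, with a median log2 ratio of -0.71. The shares over all measured genes were 7.03% higher and 14.4% lower.

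Among receptors, Kit was at least 2-fold higher and Cd34 and Csf1r at least 2-fold lower. Kit, the stem cell factor receptor of early progenitors, was found in 32 selected barcodes and reached 108 CPM, against 46.9 CPM in the others (log2 1.21, 0.67 to 1.71). Cd34, the other classical progenitor marker, had 1 UMI in the selected barcodes against 197 in the others (log2 -2.93, -8.25 to -0.44). Flt3, the receptor of earlier and dendritic progenitors, had 0 UMIs, which allows a share of up to 2.12% of barcodes with a UMI by the exact binomial interval. Csf3r, the G-CSF receptor, stood at 71.2 CPM in the selected barcodes against 44.0 CPM in the others (log2 0.70, 0.02 to 1.30), short of 2-fold, and was found in 20 of them. Csf1r, the M-CSF receptor, stood at 21.7 CPM against 66.6 CPM in the others (log2 -1.62, -2.94 to -0.57) and was found in 6. Fcgr3, which marks granulocyte-monocyte progenitors by flow cytometry, reached 176 CPM in the selected barcodes and 82.9 CPM in the others (log2 1.09). Clec12a, an inhibitory lectin of myeloid cells, reached 879 CPM against 341 CPM in the others (log2 1.37). Ly6c2 stood at 1721 CPM against 1194 CPM in the others (log2 0.53), and Ly6g, the gene of the gate's antigen, had 6 UMIs in the selected barcodes (log2 -2.29, -3.74 to -1.16). Past 2-fold, 2 of the 19 measured cytokine receptors were higher and 7 lower, and 3 of 20 gate and surface genes were higher and 7 lower. Over all measured genes 7.03% were higher and 14.4% lower.

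All 8 measured monocyte markers were lower in the selected barcodes by 2-fold or more. Together they held 340 CPM in the selected barcodes, against 1792 CPM in the others, and their median log2 ratio was -2.29. Fn1 (fibronectin) stood at 52.6 CPM against 279 CPM in the others, F13a1 (coagulation factor XIII) at 61.9 CPM against 276 CPM in the others, and Ccr2, the receptor by which monocytes leave marrow, at 52.6 CPM against 341 CPM in the others. The summed level of 340 CPM was close to the 293 CPM in erythroid barcodes, which should lack these genes. On a longer list of 10 monocyte genes, drawn up to compare leanings, 85 selected barcodes had no UMI and 11 had 3 or more. By UMIs, 170 selected barcodes held more of a matching neutrophil list than of this monocyte list, 2 were equal and 0 held more of the monocyte list. Monocyte-leaning and neutrophil-leaning barcodes therefore could not be compared. Of the 2078 UMIs of the neutrophil list in the selected barcodes, Camp gave 1059 and Ngp 403. The levels of both outside neutrophils are given with the later granules. The part of free RNA in this list was not tested, so the counts do not measure a leaning.

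The other lineages were low as well. All 8 measured erythroid markers were at least 2-fold lower in the selected barcodes (117.6 CPM in sum against 1410 CPM in the others), as were all 6 plasmacytoid dendritic markers (126.9 against 733 CPM in the others). Of the basophil and mast cell markers 5 of 6 were at least 2-fold lower (130.0 against 875 CPM in the others), and of the B lineage markers 4 of 7 (49.5 against 126.9 CPM in the others). Of the conventional dendritic markers 4 of 5, of the megakaryocyte markers 2 of 4 and of the neutrophil markers, which include later granule genes, 8 of 9 were lower by 2-fold or more. Over all measured genes this share was 14.4%. The lymphoid-primed list had 0 UMIs in the selected barcodes. The stem and early progenitor markers were not lower in sum, at 511 CPM in the selected barcodes against 413 CPM in the others. Of these 12 markers, Kit was the 1 past 2-fold upward, 4 were past it downward and 7 were within 2-fold. Among MHC class II genes 5 of 6 were at least 2-fold lower, with Cd74, the invariant chain, at 46.4 CPM in the selected barcodes and 549 CPM in the others (log2 -3.56). At a mean level of 50 CPM or more over both sides, the lowest ratio was that of Ifitm6, an interferon-induced membrane protein of mature neutrophils and monocytes, at 21.7 CPM in the selected barcodes against 562 CPM in the others (log2 -4.70, -6.01 to -3.65). Tmsb10, an actin-binding thymosin, followed the same direction at 440 CPM against 4139 CPM in the others (log2 -3.24).

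Genes of the later granules were low and close to the level seen in barcodes that should not make them. Of 16 measured secondary and tertiary granule genes, 0 were higher and 12 lower by 2-fold or more, with a median log2 ratio of -1.98. Ltf (lactoferrin) stood at 241 CPM in the selected barcodes against 2008 CPM in the others (log2 -3.06), beside 242 CPM in erythroid and 337 CPM in plasmacytoid dendritic barcodes. Lcn2 (lipocalin 2) stood at 303 CPM against 2414 CPM in the others (log2 -2.99), beside 327 CPM in erythroid and 554 CPM in NK barcodes. Ngp (neutrophilic granule protein) stood at 1247 CPM against 11235 CPM in the others (log2 -3.17), beside 1269 CPM in erythroid and 1987 CPM in NK barcodes. All 3 were at or near the level of barcodes that should lack them, and the part of free RNA in them was not tested. Camp (cathelicidin) stood at 3278 CPM in the selected barcodes against 17113 CPM in the others, beside 2227 CPM in erythroid and 2263 CPM in plasmacytoid dendritic barcodes. Of its 1059 UMIs in the selected barcodes, 579 were in the 37 barcodes with 5 to 15% S100 UMIs. Those with under 2% and with 2 to 5% stood at 1738 and 2044 CPM, not above the erythroid level. Fcnb (ficolin B) was the member of the list that stood clear of the barcodes that should lack it. It reached 588 CPM in the selected barcodes and 339 CPM in the others (log2 0.79, 0.58 to 1.01), beside 39.5 CPM in erythroid, 21.8 CPM in plasmacytoid dendritic and 0 UMIs in NK barcodes.

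The secretory machinery was the functional list with the highest median. Of 25 measured genes of endoplasmic reticulum folding and translocation, 12 were higher in the selected barcodes and 0 lower by 2-fold or more, with a median log2 ratio of 0.95. Calr (calreticulin), a chaperone of newly made glycoproteins that binds myeloperoxidase precursors, reached 978 CPM in the selected barcodes, against 287 CPM in the others (log2 1.77, 1.60 to 1.94). It was found in 120 selected barcodes, with a median of 1 UMI and a highest value of 10. Sdf2l1 reached 415 CPM against 146 CPM in the others (log2 1.51), and Manf reached 331 CPM against 133 CPM in the others (log2 1.32); both belong to the chaperone network of that compartment. Hspa5 (BiP) reached 449 CPM in the selected barcodes and 197 CPM in the others (log2 1.19), and the disulfide isomerase Pdia4 reached 232 CPM against 90.5 CPM in the others (log2 1.36).

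Growth and cell cycle lists differed less. Of 18 nucleotide synthesis genes 3 were past 2-fold upward and 1 downward, the higher ones being Impdh1 (log2 2.43), Umps (log2 1.48) and Shmt1 (log2 1.74, 0.36 to 2.88 on 7 UMIs). Ribosome biogenesis had 2 higher and 1 lower of 18 (median log2 ratio 0.42), glycolysis 1 higher and 0 lower of 16 (0.24), and oxidative phosphorylation 0 and 0 of 18 (0.36). Among all measured genes 7.03% were higher and 14.4% lower. None of the 20 S phase genes (median log2 ratio 0.44) and none of the 20 G2 and M phase genes (-0.42) differed by 2-fold. Both cycle lists held UMIs in the selected barcodes, with Top2a in 57 of them, Pcna in 52 and Mki67 in 33.

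**Figure D3:**
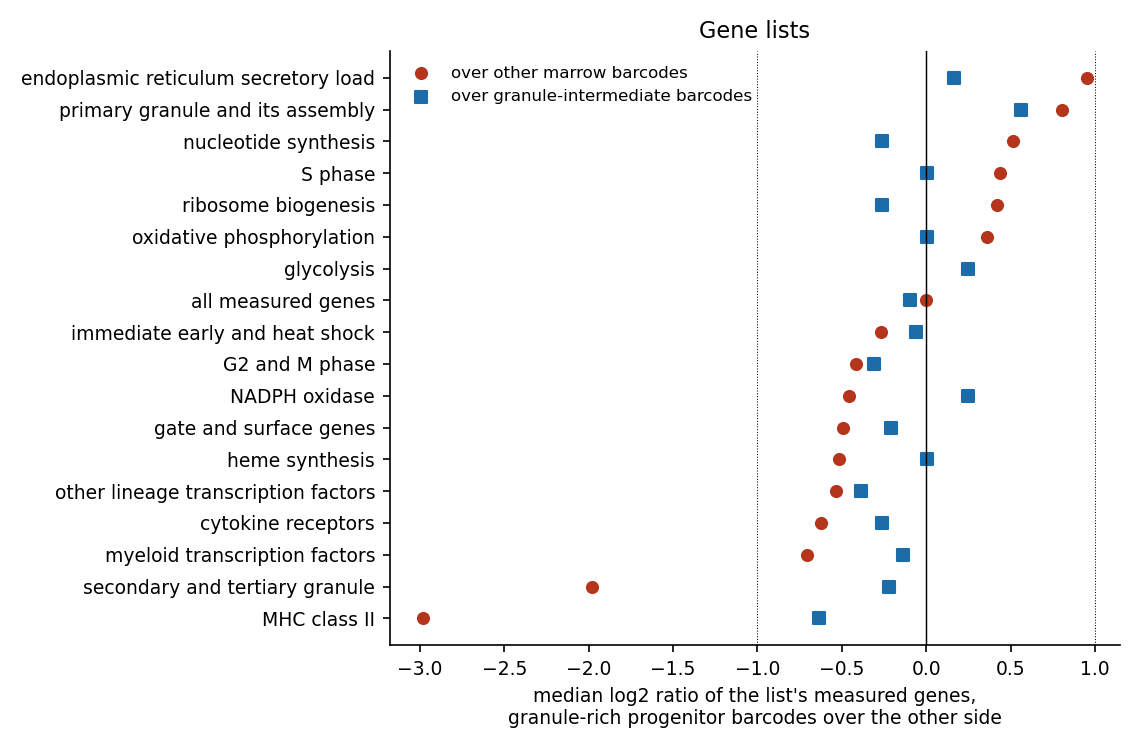
Median log2 ratio of the measured genes of each list, granule-rich progenitor barcodes over the other marrow barcodes (red circles) and over the granule-intermediate barcodes (blue squares); dotted lines mark a 2-fold difference. The secretory list stands at 0.95 over the other marrow barcodes and 0.16 over the granule-intermediate barcodes, and the secondary and tertiary granule list at -1.98 and -0.22.

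The closest neighbours were 519 barcodes with 0.5 to under 2% granule UMIs and under 15% S100 UMIs, called granule-intermediate, with 1142070 UMIs and a median of 2002 per barcode. Of 6356 measured genes, 201 were higher in the selected barcodes by 2-fold or more (3.16%) and 586 lower (9.22%), with a median log2 ratio of -0.10. With DESeq2 size factors, which shift the log2 ratios by 0.10, the counts were 286 and 503. Of 15 measured genes of the primary granule and its assembly 5 were higher and 1 lower past 2-fold. Ms4a3 stood at 1628 CPM in the selected barcodes and 610 CPM in the intermediate ones (log2 1.42), Prss57 at 238 against 90.2 CPM (log2 1.40), and Cd63 at 786 against 281 CPM (log2 1.48). Gfi1 stood at 80.5 CPM in the selected barcodes and 28.9 CPM in the intermediate ones (log2 1.48, 0.68 to 2.26), and Cebpe at 269 against 110.3 CPM (log2 1.29, 0.88 to 1.69). Fcnb reached 588 CPM in the selected barcodes against 245 CPM in the intermediate ones (log2 1.26).

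Irf8, monocyte, basophil and early progenitor genes were among those lower against the intermediate barcodes. Irf8 stood at 27.9 CPM in the selected barcodes, against 261 CPM in the intermediate ones (log2 -3.23, -4.37 to -2.28), and 6 of 8 monocyte markers were at least 2-fold lower, with 0 higher. The basophil proteases Mcpt8 (83.6 against 742 CPM, log2 -3.15) and Prss34 (31.0 against 348 CPM, log2 -3.49) were lower in the selected than in the intermediate barcodes, with 4 of 4 measured basophil and mast cell markers at least 2-fold lower. The intermediate barcodes were not alike in this. The basophil and mast cell list summed to 2492 CPM at 0.5 to 1% granule UMIs and 178 CPM at 1 to 2%, near the 130 CPM of the selected barcodes. Cd34 had 1 UMI in the selected barcodes against 55 in the intermediate ones (log2 -3.96, -9.29 to -1.42), and 4 of 7 measured stem and early progenitor markers were at least 2-fold lower, with 0 higher. The secretory list did not differ by this measure: 0 of 25 genes were 2-fold higher or lower, with a median log2 ratio of 0.16, and Calr stood at 978 CPM in the selected barcodes and 839 CPM in the intermediate ones. Ribosome biogenesis also had 0 of 16 genes past 2-fold, with a median of -0.26.

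Across the 4 lower ranges of the granule share and the selected barcodes, taken over S100-poor barcodes, some genes followed the share and others did not. The ranges under 0.25%, 0.25 to 0.5%, 0.5 to 1%, 1 to 2% and at least 2% held 3315, 269, 236, 283 and 172 barcodes, with median depths of 939, 1341, 1898, 2100 and 1864 UMIs. In that order Ms4a3 stood at 45.6, 181, 365, 806 and 1628 CPM, and Gfi1 at 3.88, 7.22, 15.8, 39.4 and 80.5 CPM. Irf8 ran the other way, at 429, 390, 310, 222 and 27.9 CPM, as did the monocyte list in sum, at 2843, 2203, 1566, 902 and 340 CPM. Between neighbouring ranges, Irf8 differed by more than 2-fold only at the last step, into the selected barcodes.

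Some other genes had their highest level at an intermediate share, and others in the selected barcodes. Mcpt8 stood at 481, 2954, 1545, 101 and 83.6 CPM over the same ranges, and Cd34 at 23.5, 86.7, 63.1, 36.2 and 3.10 CPM. Mcpt8 was found in 487 of the 6267 other barcodes, with 122 UMIs in the highest. The basophil and mast cell markers were also highest in sum at 0.25 to 0.5%, at 4944 CPM. These are pooled levels, and a range need not hold 1 cell type. Ribosome biogenesis genes summed to 2471, 2530, 3094, 3303 and 2582 CPM, while the secretory list summed to 5672, 7599, 8774, 10246 and 10744 CPM. Calr reached 959 CPM in the range of 1 to 2%, near its 978 CPM in the selected barcodes. Cebpe stood at 36.1, 40.9, 105, 115 and 269 CPM. Myb stood at 199, 246, 284, 505 and 585 CPM, and Myc, the growth factor-induced activator of ribosome genes, at 54.1, 101, 107, 99.2 and 68.1 CPM.

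**Figure D4:**
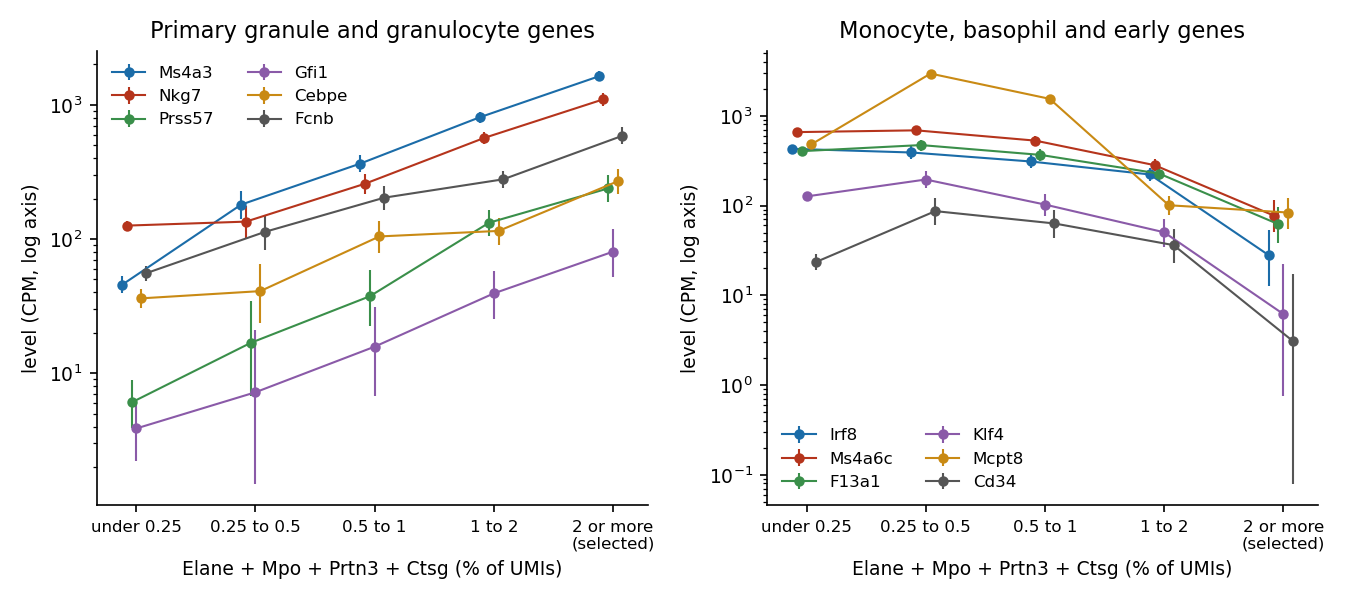
Levels (CPM, log axis) of 12 genes outside the rule over ranges of the granule share (% of UMIs) among S100-poor marrow barcodes, with 95% exact Poisson intervals. Ms4a3 and Gfi1 are highest in the selected barcodes, at 1628 and 80.5, while Irf8 and Cd34 are lowest there, at 27.9 and 3.10.

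Barcodes with the stem and early progenitor list at 0.5% of UMIs or more stood on the other side of the granule limit. There were only 38 of them, with 34334 UMIs and a median of 851, and they were chosen on Kit, Cd34, Sox4, Cdk6 and related genes, whose differences are therefore fixed by the choice. Of 2263 measured genes, 479 were higher in the selected barcodes by 2-fold or more (21.2%) and 264 lower (11.7%), with a median log2 ratio of 0.04. The balance turned in barcodes of at least 1000 UMIs, where 182 genes were higher and 286 lower. Ms4a3 stood at 1628 CPM in the selected barcodes and 116.5 CPM in the early ones (log2 3.80, 2.44 to 5.69), and Ly6c2 at 1721 against 204 CPM (log2 3.08, 2.02 to 4.40). Fcnb had 190 UMIs in the selected barcodes and 0 in the early ones, at least 6.73-fold higher against a floor of 3 counts over the early group. Cebpe had 87 UMIs in the selected barcodes and 2 in the early ones (log2 2.21, 0.31 to 5.28). The secretory list had 18 of 25 genes at least 2-fold higher and 0 lower (median log2 ratio 1.33).

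Lower in the selected barcodes were factors and signalling genes of early progenitors that the choice did not use. Pim1, a cytokine-induced kinase, stood at 80.5 CPM in the selected barcodes and 990 CPM in the early ones (log2 -3.62, -4.42 to -2.84). Bcl11a, a factor of early and lymphoid progenitors, stood at 83.6 against 583 CPM (log2 -2.80, -3.69 to -1.89), and Ifitm1 had 3 UMIs in the selected barcodes against 21 in the early ones (log2 -6.04, -8.43 to -4.30). Myb did not differ detectably, at 585 CPM in the selected barcodes and 670 CPM in the early ones (log2 -0.20, -0.82 to 0.50). With the early list at 0.2% or more, which takes 315 barcodes, 289 genes were higher in the selected barcodes and 741 lower by 2-fold or more, and the secretory median was 1.07. The S phase list had 7 of 14 genes at least 2-fold higher against the 38 early barcodes (median log2 ratio 1.06), but its median was 0.24 against the 315.

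On the mature side stood 2162 S100-rich barcodes with 2638690 UMIs, in which S100a8 and S100a9 held 31.8% of UMIs. Of 7217 measured genes, 1941 were higher in the selected barcodes by 2-fold or more (26.9%) and 839 lower (11.6%), with a median log2 ratio of 0.40. This split depends on scaling, since a few genes fill the S100-rich total. With TMM factors, a shift of -0.43, there were 1080 higher and 1330 lower genes; DESeq2 size factors give 1084 and 1317, and totals without the rule genes give 1009 and 1395. The ratios given next are from plain totals, and each except the G2 and M phase median is larger in size than that shift.

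Genes of growth and protein synthesis were higher in the selected barcodes, and those of the later granules were higher in the S100-rich ones. Of 15 measured ribosome biogenesis genes 15 were higher in the selected barcodes by 2-fold or more (median log2 ratio 2.34), as were 12 of 14 nucleotide synthesis genes (2.39), 21 of 25 secretory genes (1.79) and 11 of 19 S phase genes (1.05, or 0.62 with TMM factors). Of 20 G2 and M phase genes 0 were higher and 3 lower (median log2 ratio -0.24, or -0.67 with TMM factors). Npm1 (nucleophosmin) stood at 854 CPM in the selected barcodes and 132 CPM in the S100-rich ones (log2 2.70), and Phgdh, the first enzyme of serine synthesis, at 102 against 3.03 CPM (log2 5.07, 3.93 to 6.40). Srgn stood at 1232 CPM in the selected barcodes against 64.8 CPM in the S100-rich ones (log2 4.25), Mt1 at 861 against 49.3 CPM (log2 4.13), and Myb at 585 against 88.3 CPM (log2 2.73). Of 15 secondary and tertiary granule genes 14 were at least 2-fold lower and 0 higher (median log2 ratio -3.38). Ngp stood at 1247 CPM in the selected barcodes and 31395 CPM in the S100-rich ones (log2 -4.65), and Ltf at 241 against 5483 CPM (log2 -4.51). Cebpe was lower in the selected barcodes, at 269 CPM against 494 CPM in the S100-rich ones (log2 -0.87, -1.20 to -0.56).

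The selected barcodes were not uniform and were compared along their own S100 share, which the rule limits. With S100a8 and S100a9 under 2% of UMIs there were 77 barcodes, with 2 to 5% there were 58, and with 5 to 15% there were 37, with median depths of 2130, 1726 and 1815 UMIs. A share of 1.42% was measured over the erythroid and 2.18% over the NK barcodes, so the lowest range is near the level of these barcodes. Of 1483 genes measured in the 5 to 15% range and the range under 2%, 87 were higher in the 5 to 15% range by 2-fold or more (5.87%) and 143 lower (9.64%). With totals that leave out the rule genes these counts were 117 and 114. The median log2 ratio was -0.13.

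At a mean level of 50 CPM or more over both ranges, Fcnb had the highest of these ratios. In the order under 2%, 2 to 5% and 5 to 15% it stood at 95.9, 764 and 1628 CPM, and it was found in 15 of 77, 33 of 58 and 32 of 37 barcodes. The log2 ratio of the highest over the lowest range was 4.09 (3.32 to 4.95). Camp stood at 1738, 2044 and 9153 CPM in the same order, with 2, 7 and 96 UMIs as the lowest, median and highest barcode of the 5 to 15% range; without the highest barcode that level was 7916 CPM. Other genes of later granules and of maturing neutrophils went the same way: Chil3, a chitinase-like protein, at 180, 247 and 743 CPM, Hp (haptoglobin) at 324, 656 and 901 CPM, and Serpinb1a at 240, 441 and 933 CPM. Cebpe stood at 168, 333 and 443 CPM. In all, 6 of 10 measured secondary and tertiary granule genes were higher in the 5 to 15% range by 2-fold or more and 0 lower, with a median log2 ratio of 1.38. Ngp, Ltf and Lcn2 were not among them, at 1565 against 1259 CPM, 253 against 204 CPM and 221 against 348 CPM in the 5 to 15% range and the range under 2%.

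The protease genes are values of the rule and are given as a description: in the order under 2%, 2 to 5% and 5 to 15%, Elane stood at 9680, 11715 and 13421 CPM, Prtn3 at 5274, 5960 and 5896 CPM, Mpo at 6797, 6960 and 5612 CPM, and Ctsg at 2284, 2119 and 1043 CPM. Ctsg was found in 98.7%, 82.8% and 67.6% of the barcodes of these ranges. Ms4a3 stood at 1504, 2022 and 1375 CPM, with no order along the S100 share. Cst7 stood at 246, 204 and 94.8 CPM.

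Some folding and growth genes were lower in the 5 to 15% range. Of 23 measured secretory genes 4 were at least 2-fold lower and 1 higher, with a median log2 ratio of -0.29, against -0.13 over all measured genes. None of the 2 measured stem and early progenitor markers was 2-fold lower or higher. Pdia6, a disulfide isomerase, stood at 372, 161 and 47.4 CPM in the order under 2%, 2 to 5% and 5 to 15% (log2 -2.97, -5.29 to -1.36 for the last over the first), and Calr at 1085, 1065 and 569 CPM. Impdh2, the rate-limiting enzyme of guanine nucleotide synthesis, stood at 168, 194 and 15.8 CPM, the last from 1 UMI (log2 -3.41, -8.76 to -0.81). Myb stood at 653, 592 and 395 CPM. Ccnd2 (cyclin D2) had 2 UMIs in the 5 to 15% range against 41 in the range under 2% (log2 -2.96, -6.05 to -1.01). Irf8 had 8, 1 and 0 UMIs in the 3 ranges, and Gfi1 had 10, 12 and 4 UMIs, too few for an order. Ribosome biogenesis had 4 of 9 measured genes at least 2-fold lower and 1 higher (median log2 ratio -0.86), and the 3 measured nucleotide synthesis genes were all at least 2-fold lower. Of 11 S phase genes 3 were at least 2-fold higher and 0 lower, and of 8 G2 and M phase genes likewise 3 and 0, so the cycle lists were not low where the growth lists were.

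**Figure D5:**
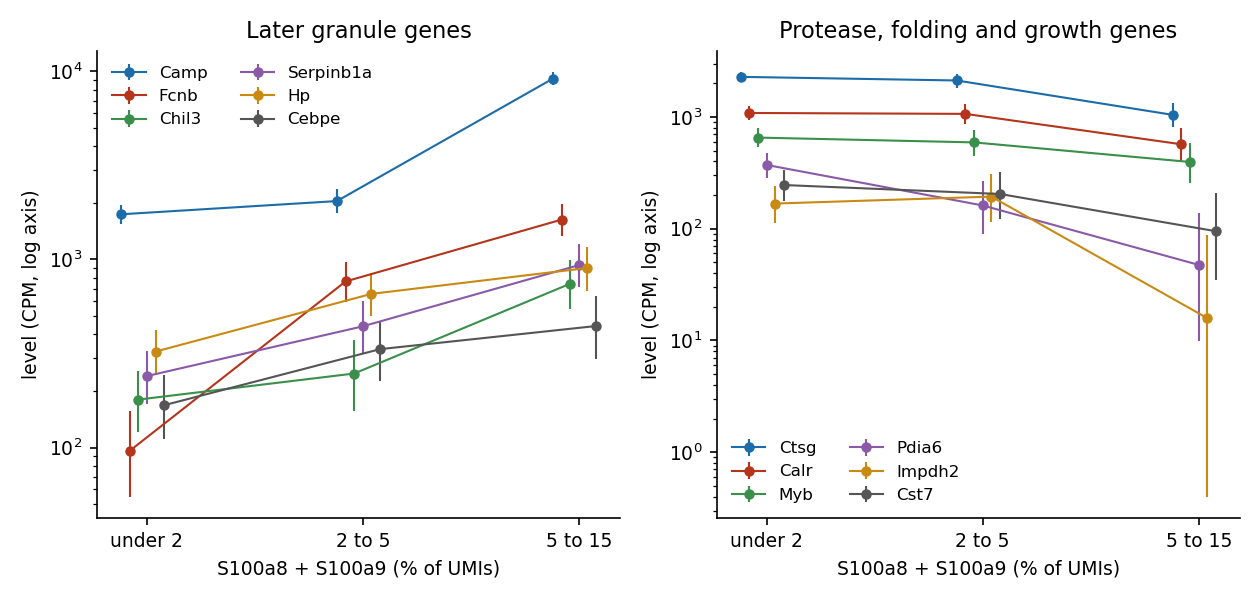
Levels (CPM, log axis) of 12 genes in the granule-rich progenitor barcodes by their S100a8 and S100a9 share (% of UMIs), with 95% exact Poisson intervals. Fcnb stands at 95.9, 764 and 1628 over the 3 ranges and Pdia6 at 372, 161 and 47.4.

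In the Car1-GFP library the same rule found 2 of 2400 barcodes. The first held 15168 UMIs, with 2.08% granule and 4.10% S100 UMIs and 32 UMIs of Ms4a3. The second held 21246 UMIs, with 2.95% granule and 0.165% S100 UMIs, 64 UMIs of Ms4a3 and 156 of Ctsg. Both were deeper than any of the selected marrow barcodes. Over the other 2398 barcodes of that library Elane stood at 7.97 CPM and Ms4a3 at 4.12 CPM. Car1 itself, the reporter gene, had 1 and 2 UMIs in the 2 barcodes.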

How the data were processed

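Droplet single-cell RNA libraries (10x Genomics 3′, v2 chemistry, per the labels' protocols) of mouse marrow were analysed. Per the submitters' processing notes the tools were Cell Ranger 2.1 and Seurat 2 on mm10; strand and intron handling are not given in the sources used here. The authors deposited counts, whole UMI numbers per gene and barcode for 27998 gene identifiers, without normalization. No deposited cell annotation was used. Positions come from GENCODE M21 (27645 identifiers matched) and promoter sequences from RefSeq, GRCm38.p6.

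UMIs were summed per barcode group with Python 3.11.15, numpy 2.4.6 and scipy 1.17.1 and divided by the group total (CPM). With 1 library per group no test was made. CPM carry exact Poisson and ratios exact binomial intervals at 95%. A gene was measured with at least 20 UMIs over both sides, and differences of at least 2-fold were counted. A side at 0 was set at a floor of 3 counts over the group, for counts of genes and list medians alike, so a gene at 0 counts as 2-fold different only where that bound passes 2-fold. Granule-intermediate barcodes had 0.5 to under 2% granule UMIs; S100-rich ones at least 15% S100 UMIs; monocyte barcodes at least 0.5% and erythroid, NK and plasmacytoid dendritic barcodes at least 1% of UMIs in their marker lists, which are therefore no finding there. Shares at equal depth used barcodes thinned to 500 UMIs. Doublets were called with Scrublet in scanpy 1.11.5 and kept, since 0 selected barcodes were called; removing them is an alternative. The ratio computation was tested on simulated Poisson counts of well-counted genes, without spread between barcodes. Genes at the lowest counts were not covered.

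The barcodes, gene lists and comparisons were chosen with earlier results of these data known. Genes were named by a rule: those with a mean of at least 50 CPM and the 15 highest and 15 lowest ratios per comparison (10 within the selected barcodes), a set of lineage factors and receptors, and up to 5 genes per list; neighbours of the proteases and some further list genes were named after their values were seen. Alternatives were TMM (edgeR 4.0.16) and DESeq2 1.42.0 size factors, other totals, filters, depths and limits. The granule-intermediate, S100-rich and within-selection comparisons, the looser early list and the ranges of granule share were added after seeing the data, because 2 barcodes lay across the S100 limit and the planned ranges above 4% held 1 barcode.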

Additional observations from a re-analysis of the deposited data

Results flagged for a closer look

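The Car1-GFP library was outside the comparisons, yet 2 of its 2400 barcodes met the selection rule, and together they held 943 UMIs of Elane, Mpo, Prtn3 and Ctsg. The other 2398 barcodes of that library held Elane at 7.97 CPM; since the rule uses these 4 genes, that difference is fixed by the selection. Nkg7 had 14 and 38 UMIs and Cebpe 3 and 4 UMIs in the 2 barcodes, and Irf8 had 0 in both. Hbb-bs, an erythroid globin, stood at 2769 and 3201 CPM in the 2 barcodes, against 5455 CPM in the others, so globin RNA was present in them too. Neither barcode sequence was shared with the marrow library. Whether they were GFP-expressing cells or came through the sort gate was not tested.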

How the results depend on the processing

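The number of selected barcodes was 296 with a granule limit of 1.5% and 32 with 3%; the other limits, doublet removal, a depth of 1000 UMIs and leaving out shared barcodes gave 146 to 174. No paired analysis was possible because each group is 1 library. Against other marrow barcodes, genes higher were 1259 with a minimum of 1 UMI and 323 with 100; with a granule limit of 3% they were 1465 and those lower 574; where the interval also had to exclude an equal level, 411 and 634. Epor reversed to 0.32 with equal weight per barcode. Against early progenitor barcodes, higher and lower were 103 and 14 at 100 UMIs, 138 and 121 with the interval, and 289 and 741 with the list at 0.2%; at 1 UMI 2689 were lower, and in barcodes of at least 1000 UMIs 182 were higher and 286 lower. In that comparison Noc2l (-0.41) and Runx1 (0.17) reversed in barcodes of at least 1000 UMIs, and Cdk1 (-0.13), Cybb (-0.024), Ndufv1 (0.71), Noc2l (-0.22) and Rrm1 (-0.50) with the list at 0.2%. Against granule-intermediate barcodes, higher and lower were 25 and 57 at 100 UMIs, 239 were lower with the interval, and the stem and early progenitor median reversed to 0.35 at 100 UMIs. Against S100-rich barcodes they were 1080 and 1330 with TMM, 1084 and 1317 with DESeq2, 1009 and 1395 without the rule genes, and 636 and 342 at 100 UMIs, with 434 lower with the interval. Within the selected barcodes they were 9 and 11 at 100 UMIs, with 61 lower with the interval. At 100 UMIs fewer genes were measured, while the interval adds a condition over the same measured genes. The counts at a granule limit of 3% rest on 50241 UMIs, over which the floor of 3 counts is a higher level. They are not on the same scale as those at 2%. The causes of the changes and reversals listed here were not tested. Comparisons across the S100 limit (2 barcodes), of monocyte-leaning barcodes (0) and with the early list at 1% were not run.

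Depth limits the factors: a gene with up to about 35 UMIs in the selected barcodes, the number for Kit, has an interval wider than a 2-fold difference. Free RNA, strong for S100a8, Camp and Ngp, was not removed.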
